A study of Mus musculus with 18 samples.

Results

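The interleukin genes were the mouse genes whose symbols begin with Il and a number, both the secreted interleukins and their receptors. By this rule 70 of the 15410 gene symbols counted in mouse colon and spinal dorsal horn were members, and 65 of them were in both tissues. They comprised 29 ligands, 35 receptor chains, 5 inhibitors and decoy receptors, and 1 enzyme, Il4i1, which shares only the symbol. The receptor genes Il4ra and Il6ra were not analysed here. Bulk RNA sequencing covered 3 groups of 3 libraries in each tissue, all from mice labelled wild type (WT). The nivolumab group carried cancer and received nivolumab, an antibody raised against human PD-1, the cancer group carried cancer and received control IgG, and the sham group received control IgG. The series' title names bone cancer pain and PD-1 blockade. The sources used here give no tumour line, dose, time point, strain, age or sex. The labels do not say whether libraries came from separate animals, so p-values measure only the spread between these libraries, which may be technical.

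An interleukin acts by bringing together receptor chains on the cell that receives it, and many interleukins share a chain. The cytokines IL-6 and IL-11 signal through gp130, the product of Il6st. The cytokines IL-10 and IL-22 use the chain encoded by Il10rb, and IL-2, IL-4, IL-7, IL-15 and IL-21 use the common gamma chain of Il2rg. These receptors activate JAK kinases and STAT transcription factors, whereas receptors of the IL-1 and IL-17 families work through adaptor proteins. In the colon, IL-18, IL-22 and IL-33 are known for roles in the epithelial barrier. In the spinal cord, IL-1 and IL-6 are known for acting on neurons and glia.

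Promoter windows of 300 bases are shown for Il6st and Il7r, called higher and lower, respectively, in nivolumab against cancer in the dorsal horn. Against sham, Il6st was called as well and Il7r was not. The Il6st window lay at chr13:112463820-112464119 on the plus strand. The Il7r window lay at chr15:9529827-9530126 on the minus strand. Each ran from 250 bases before the start to 50 bases after it in RefSeq on GRCm38.p6. Capitals mark a match to TTCNNNGAA, the pairing of half-sites that STAT factors recognise.
Il6st: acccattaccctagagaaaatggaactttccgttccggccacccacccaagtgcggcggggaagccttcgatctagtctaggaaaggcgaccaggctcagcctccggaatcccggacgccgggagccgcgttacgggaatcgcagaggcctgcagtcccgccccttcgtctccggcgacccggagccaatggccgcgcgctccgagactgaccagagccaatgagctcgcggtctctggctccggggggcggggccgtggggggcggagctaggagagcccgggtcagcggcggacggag
Il7r: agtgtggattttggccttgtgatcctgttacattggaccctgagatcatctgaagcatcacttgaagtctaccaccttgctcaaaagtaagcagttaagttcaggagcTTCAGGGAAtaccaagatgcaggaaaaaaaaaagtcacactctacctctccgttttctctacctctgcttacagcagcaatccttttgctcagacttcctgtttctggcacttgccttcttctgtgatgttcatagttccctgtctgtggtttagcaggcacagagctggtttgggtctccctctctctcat
The Il7r window held TTCAGGGAA and the Il6st window held no match to the STAT motif or to TGANTCA, the site of AP-1 factors, both searched on either strand. TTCNNNGAA was present in 8 of the 68 promoter windows of the 54 interleukin genes with an entry, and in 8.30% of all 32851 windows. A match is only a match of letters, and binding was not measured.

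The promoters of Il11 and Il6 are shown because these ligands of gp130 receptors had the widest gap between the nivolumab and sham colons among the named ligands detected in both groups. For Il11, which has a pair of entries, the window at chr7:4778092-4778391 on the minus strand is printed. The Il6 window lay at chr5:30012864-30013163 on the plus strand. Capitals mark TGANTCA.
Il11: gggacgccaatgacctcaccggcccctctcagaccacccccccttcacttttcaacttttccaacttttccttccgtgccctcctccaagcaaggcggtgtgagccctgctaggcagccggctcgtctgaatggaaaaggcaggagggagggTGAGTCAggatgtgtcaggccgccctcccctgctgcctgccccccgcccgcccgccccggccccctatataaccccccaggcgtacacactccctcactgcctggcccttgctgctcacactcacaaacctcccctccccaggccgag
Il6: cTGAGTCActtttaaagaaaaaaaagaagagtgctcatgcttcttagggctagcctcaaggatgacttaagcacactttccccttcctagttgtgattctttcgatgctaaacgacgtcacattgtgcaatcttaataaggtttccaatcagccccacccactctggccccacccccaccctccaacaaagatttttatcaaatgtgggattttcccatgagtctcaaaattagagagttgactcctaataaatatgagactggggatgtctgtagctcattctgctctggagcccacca
Each printed window held TGAGTCA. The other Il11 window, at chr7:4782808-4783107, held no match to the AP-1 or STAT motif. Matches to the AP-1 motif were present in 12 of the 68 interleukin windows and in 7.81% of all windows.

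Total counts ran from 20896854 to 30803957 per colon library and from 21855085 to 29071908 per dorsal horn library. Interleukin genes accounted for 0.0943% to 0.168% of each colon library and for 0.0476% to 0.0697% of each dorsal horn library. Levels are given as CPM, the counts scaled to an effective library size, and 3 counts equalled 0.0950 to 0.149 CPM for colon libraries and 0.103 to 0.132 CPM for dorsal horn libraries. The tissues fitted their labels. Epcam of epithelium was at 1258 to 2057 CPM in the colon and 0.185 to 1.28 CPM in the dorsal horn. Snap25 of neurons was at 2.00 to 72.5 CPM in the colon and 2899 to 3863 CPM in the dorsal horn. In the dorsal horn, 7 epithelium markers summed to 34.5 to 59.1 CPM in nivolumab, 4.49 to 26.7 CPM in cancer and 4.60 to 21.2 CPM in sham. Of the 7, 1 was higher in every nivolumab library than in all others. Markers of dorsal root ganglion were uneven among dorsal horn libraries. Scn10a, a sodium channel of dorsal root ganglion neurons, had 307, 205 and 400 CPM in the nivolumab libraries, 0.105, 0.114 and 103 CPM in the cancer libraries, and 0, 0.0789 and 89.4 CPM in the sham libraries. In bulk tissue, fewer cells of a type and less RNA per cell cannot be told apart.

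Among interleukin genes in the dorsal horn, the nuclear cytokine gene Il33 was the most abundant per length, at a mean of 26.7 RPKM (CPM per kilobase of exon) over the 9 libraries. The next were Il6st at 17.5 RPKM, Il18 at 15.9 RPKM, the IL-11 receptor gene Il11ra1 at 8.01 RPKM and Il34, a ligand of the CSF1 receptor, at 8.01 RPKM. In the colon the order over all 9 libraries was Il18 at 84.4 RPKM, the IL-17 receptor chain Il17rc at 60.1 RPKM, the IL-13 receptor chain Il13ra1 at 44.5 RPKM, Il10rb at 25.9 RPKM and the IL-18 binding protein Il18bp at 18.3 RPKM. In sham colon alone, Il17rc at 62.7 RPKM was above Il18 at 36.6 RPKM. Of the ligands of T cells, Il2, Il17a, Il17f, Il21 and Il22 stayed below 1 CPM in every library of the colon.

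In the dorsal horn, Il6st and Il10rb were higher in nivolumab mice than in both other groups, while no ligand gene passed the test in any comparison. Il6st encodes gp130, shared by the IL-6 and IL-11 receptors, and Il10rb encodes a chain shared by the IL-10 and IL-22 receptors. Il7r, the IL-7 receptor chain, was lower in nivolumab mice than in cancer mice, and Il11ra1 was lower in nivolumab mice than in sham mice. Of 44 interleukin genes tested, 2 rose and 1 fell in nivolumab against cancer at an adjusted p under 0.05 (edgeR), against 8.63% of all 13609 genes higher and 8.60% lower, 17.2% in all. In nivolumab against sham, 2 rose and 1 fell of 44, against 4.67% of all genes higher and 3.84% lower, 8.51% in all. All calls were receptor genes, which were 28 of the 44 tested. The counts depended on the fit. In nivolumab against cancer, 7 of 44 were called with DESeq2, 7 with a replicate block and 14 with a covariate for ganglion markers (4 higher, 10 lower), against 23.5%, 22.5% and 22% of all genes. In nivolumab against sham these were 5, 5 and 7, against 14.4%, 12.4% and 15.2% of all genes. Leaving out 1 library gave 2 to 6 calls against cancer and 1 to 5 against sham. Both comparisons use the same nivolumab libraries.

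Il6st, which encodes gp130, had 269, 242 and 306 CPM in nivolumab libraries, 178, 146 and 148 CPM in cancer libraries, and 149, 167 and 145 CPM in sham libraries. Every nivolumab library was above every other library, and the cancer and sham libraries overlapped. The mean was 272 ± 31.8 CPM in nivolumab, against 157 ± 18.2 CPM in cancer (SD, n = 3 each), a 1.73-fold rise with a log2 fold change of 0.79 (SE 0.11, adjusted p = 0.00274, edgeR). Against the sham mean of 154 ± 11.8 CPM, the log2 fold change was 0.82 (SE 0.11, adjusted p = 0.00572). Il6st passed in both comparisons in each of 17 alternatives, including the removal of any library and a fit with ganglion marker level as a covariate. Ganglion marker levels were highest in the nivolumab libraries, so that fit cannot fully separate them from the group. With the replicate block the log2 fold change against cancer was also 0.79 (adjusted p = 0.00329).

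Il10rb, the shared chain of the IL-10 and IL-22 receptors, had 22.2, 17.7 and 25.8 CPM in nivolumab libraries, 9.64, 6.28 and 11.7 CPM in cancer libraries, and 9.08, 9.46 and 9.29 CPM in sham libraries. The nivolumab libraries again lay above all others. Its log2 fold change was 1.25 against cancer (SE 0.21, adjusted p = 0.00596, edgeR) and 1.24 against sham (SE 0.21, adjusted p = 0.0121). The call against cancer held in each of 17 alternatives, with an adjusted p of at most 0.0349. The call against sham was lost without nivolumab 1 (log2 fold change 1.24, adjusted p = 0.0624), without sham 1 (1.22, adjusted p = 0.0565) and with the ganglion covariate (0.88, adjusted p = 0.0625). The largest overlap between an exon of Il10rb and an exon of Gm21970, on the same strand, is 167 bases. The total shared over all exons was not computed, and reads in shared stretches cannot be assigned to either gene.

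Il7r, the alpha chain of the IL-7 receptor, was scarce in the dorsal horn. It had 0.519, 0.686 and 0.629 CPM in nivolumab libraries, 0.908, 3.35 and 2.08 CPM in cancer libraries, and 0.781, 0.749 and 0.493 CPM in sham libraries. All 3 cancer libraries were above the rest, by little for cancer 1. In log2 terms the change was -1.77 in nivolumab against cancer (SE 0.47, adjusted p = 0.0300, edgeR), and 1.64 in cancer against sham, where it did not pass (adjusted p = 0.183). The call was lost when any nivolumab library, cancer 2 or cancer 3 was left out, and with the ganglion covariate, at log2 fold changes of -1.27 to -1.86 and adjusted p-values of 0.0563 to 0.135. Without cancer 1 the rise in cancer against sham passed, at an adjusted p of 0.0420.

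Il11ra1, which encodes the binding chain of the IL-11 receptor and pairs with gp130, had 30.5, 31.2 and 29.6 CPM in nivolumab libraries, 32.2, 37.3 and 41.5 CPM in cancer libraries, and 37.8, 40.8 and 41.6 CPM in sham libraries. The nivolumab values were the lowest 3 of the 9. Against sham its log2 fold change was -0.40 (SE 0.09, adjusted p = 0.0302, edgeR), and it was -0.28 against cancer (adjusted p = 0.0626), where it passed with the replicate block (-0.28, adjusted p = 0.0467). The call against sham was lost without any of the 3 nivolumab libraries, cancer 2 or any of the 3 sham libraries.

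Il1r1 and Il12rb1 had lower means in nivolumab libraries but did not pass. Il1r1, the signalling receptor of IL-1, had 6.92, 7.47 and 9.81 CPM in nivolumab libraries, 8.80, 16.2 and 20.7 CPM in cancer libraries, and 11.5, 15.7 and 17.0 CPM in sham libraries. Its log2 fold change was -0.91 against cancer (adjusted p = 0.0661, edgeR) and -0.87 against sham (adjusted p = 0.108). The nivolumab libraries did not overlap the sham libraries, and nivolumab 3 exceeded cancer 1. Il12rb1, a chain shared by the IL-12 and IL-23 receptors, had 3.68, 3.26 and 4.55 CPM in nivolumab libraries, 4.33, 8.79 and 15.1 CPM in cancer libraries, and 9.41, 6.31 and 14.1 CPM in sham libraries. Its log2 fold change was -1.29 against cancer (adjusted p = 0.0847) and -1.37 against sham (adjusted p = 0.0994). Both genes passed against sham in some alternatives, Il12rb1 in 6 and Il1r1 in 5 of 17. Against cancer both passed in 4, namely DESeq2, the ganglion covariate, the removal of cancer 1 and the replicate block, where Il1r1 had -0.86 (adjusted p = 0.00783, edgeR) and Il12rb1 had -1.19 (adjusted p = 0.0308). The 3 groups of these receptors are seen side by side in the plot by library.

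**Figure D1:**
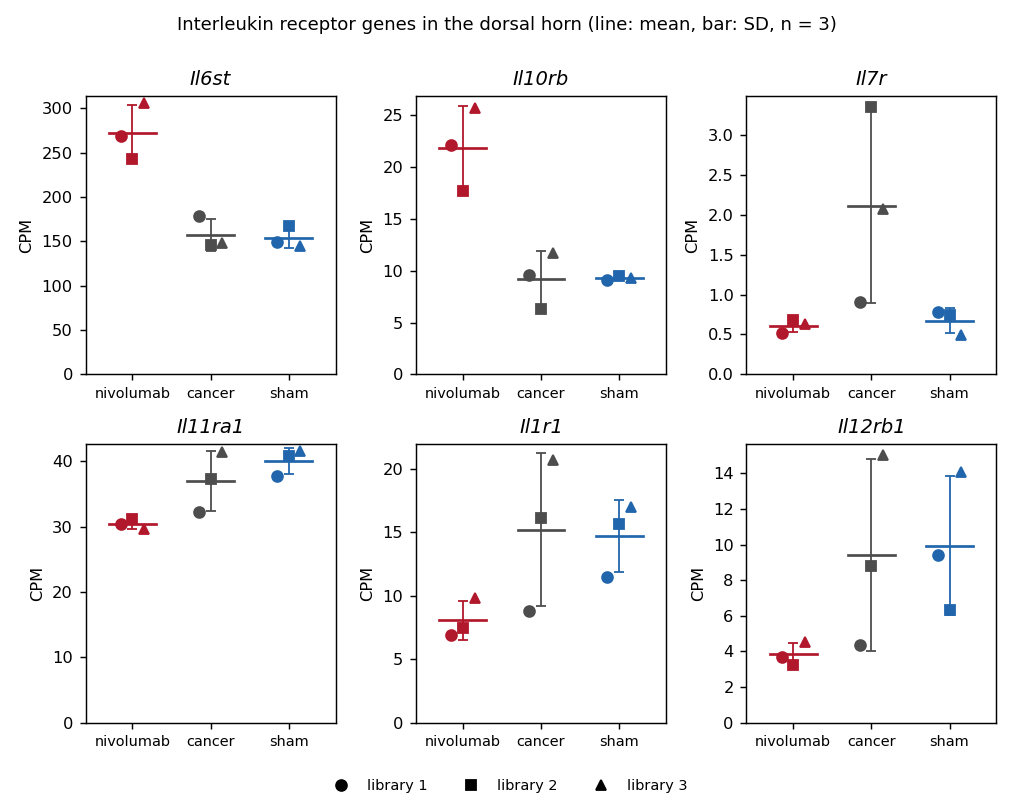
CPM (linear axis) of 6 receptor genes in each dorsal horn library, with nivolumab, cancer and sham from left to right, the group mean as a line and its SD as a bar (n = 3). Il6st and Il10rb were higher in all 3 nivolumab libraries, and Il7r was highest in 2 of the 3 cancer libraries.

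The remaining IL-1 family genes gave no call in the main test. With the ganglion covariate, Il1r2 (log2 fold change -3.785, adjusted p = 0.00286, edgeR) and Il1b (-3.43, adjusted p = 0.0305) passed as lower in nivolumab against cancer. Il1rap (0.65, adjusted p = 0.00287) and Il33 (1.66, adjusted p = 0.0105) passed as higher. None of these passed with DESeq2 and no covariate. There Il1r2 had -2.17 (adjusted p = 0.0545, DESeq2) and Il1b had -2.27 (adjusted p = 0.114). Il1rap had 0.21 (adjusted p = 0.352) and Il33 had 0.28 (adjusted p = 0.734). Ganglion markers were highest in the nivolumab libraries, so the covariate fit cannot separate them from the group. Il1rapl2, a synaptic relative of the IL-1 receptor, averaged 0.628 ± 0.387 CPM in nivolumab and 1.56 ± 0.337 CPM in cancer (adjusted p = 0.0597, edgeR), and passed with the replicate block (log2 fold change -1.39, adjusted p = 0.0489). Il18bp, the soluble inhibitor of IL-18, averaged 8.16 ± 0.410 CPM in nivolumab and 6.29 ± 0.718 CPM in cancer (log2 fold change 0.38, adjusted p = 0.0799). In nivolumab against cancer, 6 of 44 genes lay wholly higher and 7 wholly lower, against 20.6% and 19.5% of all genes. The median log2 fold change was -0.15 over receptors and 0.09 over ligands, against 0.00 over all genes.

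Cancer against sham in the dorsal horn gave 0 of 44 calls, against 0.323% of all genes (edgeR). At an unadjusted p under 0.05 there were 4 of 44, against 13.1% of all genes. They were Il7r, Il1rap, Il15ra and Il23a. Il1rap, the accessory chain of the IL-1 and IL-33 receptors, had 73.6, 63.7 and 49.99 CPM in cancer libraries and 85.0, 94.9 and 67.3 CPM in sham libraries (log2 fold change -0.40, adjusted p = 0.310). Il15ra, which presents IL-15, had 13.7, 13.6 and 13.9 CPM in cancer libraries and 12.3, 11.7 and 11.03 CPM in sham libraries (log2 fold change 0.23, adjusted p = 0.318). Il23a, a subunit of IL-23, had 0.140, 0.609 and 0.177 CPM in cancer libraries and 0.781, 0.946 and 0.607 CPM in sham libraries (log2 fold change -1.32, adjusted p = 0.374).

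Several dorsal horn genes varied widely between libraries of the same group. Il31ra, the receptor of the itch cytokine IL-31 on sensory neurons, had 8.09, 3.15 and 13.9 CPM in nivolumab libraries, 0.140, 0 and 11.4 CPM in cancer libraries, and 0, 0.158 and 3.83 CPM in sham libraries. It was high in the same libraries as Scn10a, and 13 of 14 ganglion neuron markers were higher in every nivolumab library than in all others. The exception was Nefh, also of other neurons with large axons, and the other 13 summed to 1605 to 2562 CPM in nivolumab, 229 to 943 CPM in cancer and 272 to 926 CPM in sham. Of 8 Schwann cell markers, 3 were higher in every nivolumab library than in all others, and those other than Mbp summed to 1107 to 1375 CPM in nivolumab, 183 to 594 CPM in cancer and 318 to 949 CPM in sham. Of 8 markers of central neurons, 4 were lower in every nivolumab library than in all others. All 8 summed to 4213 to 4364 CPM in nivolumab, 5128 to 5617 CPM in cancer and 4744 to 5032 CPM in sham. The part of peripheral or central cells in the Il31ra, Il6st and Il10rb results was not tested. Neither the covariate fit nor the removal of cancer 3 and sham 3 can separate ganglion content from nivolumab. Ganglion markers were highest in the nivolumab libraries, and the removal leaves cancer and sham libraries with almost no Scn10a. Without cancer 3 and sham 3, Il6st had a log2 fold change of 0.75 against cancer (adjusted p = 0.00575, edgeR) and 0.81 against sham (adjusted p = 0.00708). Il10rb had 1.45 against cancer (adjusted p = 0.00309) and 1.26 against sham (adjusted p = 0.00841). Il31ra also passed in both nivolumab comparisons without these libraries. For Il31ra in nivolumab against cancer, the log2 fold change was -2.77 with the ganglion covariate (adjusted p = 0.0101). With the replicate block it was 3.22 (adjusted p = 0.176). Il1r2, a decoy receptor of IL-1, had 0.216, 0.583 and 0.888 CPM in nivolumab libraries, 0.524, 0.837 and 6.32 CPM in cancer libraries, and 1.03, 0.631 and 2.16 CPM in sham libraries. Its highest values were in cancer 3 and sham 3, where the sum of 7 neutrophil markers was also highest, at 224 and 113 CPM, against 16.9 to 41.9 CPM in nivolumab libraries. Il33 had 69.1, 73.9 and 98.8 CPM in nivolumab libraries, 90.8, 74.3 and 34.2 CPM in cancer libraries, and 112, 98.6 and 41.1 CPM in sham libraries. It was lowest in cancer 3 and sham 3, which also had the lowest sums of 6 oligodendrocyte markers within their groups, at 25228 and 46938 CPM. The same libraries were lowest within their groups for the astrocyte, microglia and myeloid sums as well. Among nivolumab libraries, Il33 was highest in nivolumab 3, whose oligodendrocyte sum of 43915 CPM was below the 48775.5 CPM of nivolumab 2. The part of any of these cells in the Il33 values was not tested.

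Genes downstream of the receptors were read from lists of other genes. Among JAK and STAT genes in the dorsal horn, Stat3, the main STAT downstream of gp130, averaged 176 ± 19.6 CPM in nivolumab and 120.3 ± 20.8 CPM in cancer (log2 fold change 0.55, adjusted p = 0.0208, edgeR). Stat2 and Stat6, the mediator of IL-4 signalling, also rose, and Jak3, the kinase of the common gamma chain, fell, with a log2 fold change of -0.65 (adjusted p = 0.0359). Stat2, Stat3 and Stat6 rose against sham as well.

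Feedback, adaptor and partner genes are set beside the 17.2% of all genes called in nivolumab against cancer and the 8.51% called in nivolumab against sham. Of 8 SOCS and Cish genes, 0 passed in nivolumab against cancer, and Cish, a STAT5 target that damps cytokine signalling, was the only 1 that rose against sham, with 7.77 ± 1.30 CPM in nivolumab and 4.28 ± 0.691 CPM in sham (adjusted p = 0.0217, edgeR). Of 15 adaptor and inflammasome genes of IL-1 and Toll receptors, 0 passed in any comparison. Of 7 IL-17 signalling genes, Traf3ip2, the receptor adaptor, and Cebpd, a target transcription factor, fell in nivolumab against cancer. Of 16 tested partners whose symbols fall outside the rule, only Ifnlr1, the interferon lambda receptor that pairs with the Il10rb chain, passed, with a fall (log2 fold change -0.90, adjusted p = 0.0401). Lifr, a partner of gp130, averaged 233 ± 44.9 CPM in nivolumab and 142 ± 28.4 CPM in cancer (adjusted p = 0.0532). No list held a call in cancer against sham.

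In the colon, no interleukin gene passed the test in any comparison, and neither did any other gene. Calls were 0 of 55 in each of the 3 comparisons, against 0% of 13445 genes (edgeR). At an unadjusted p under 0.05 there were 5 of 55 in nivolumab against cancer, 12 in nivolumab against sham and 10 in cancer against sham, where all genes gave 9.84%, 6.45% and 10.9%. Of the 12 in nivolumab against sham, 10 had higher means in nivolumab, against 3.60% of all genes higher. All 10 in cancer against sham had higher means in cancer, against 5.38% of all genes higher. Replicates varied more in the colon, with a biological coefficient of variation of 0.376, than in the dorsal horn, where it was 0.170. DESeq2 called 2 interleukin genes in nivolumab against cancer, 4 in nivolumab against sham and 6 in cancer against sham, against 1.38%, 1.15% and 2.86% of the colon genes to which it gave an adjusted p. Nivolumab and sham libraries did not overlap for 14 of 55 genes higher and 2 lower in nivolumab, against 8.81% and 6.11% of all genes, and 8 of the 14 were among the 17 ligands tested.

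Il18, an epithelial cytokine of the IL-1 family, had the smallest p in cancer against sham. It had 60.6, 105 and 89.7 CPM in nivolumab libraries, 209, 129 and 76.3 CPM in cancer libraries, and 27.4, 46.5 and 39.5 CPM in sham libraries. All cancer and nivolumab libraries were above all sham libraries. Its log2 fold change was 1.87 in cancer against sham (SE 0.38, adjusted p = 0.181, edgeR) and 1.17 in nivolumab against sham (adjusted p = 0.641). Il18bp, its inhibitor, averaged 48.8 ± 5.91 CPM in nivolumab, 74.8 ± 21.6 CPM in cancer and 42.8 ± 12.4 CPM in sham, with no call.

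Il1rn, the IL-1 receptor antagonist, had 112, 152 and 118 CPM in nivolumab libraries, 147, 140 and 48.2 CPM in cancer libraries, and 48.4, 44.1 and 47.0 CPM in sham libraries. Cancer 3 was at the sham level while the other cancer libraries were not. The log2 fold change was 1.46 in nivolumab against sham (adjusted p = 0.472, edgeR) and 1.26 in cancer against sham (adjusted p = 0.294). Without cancer 3, the cancer against sham difference passed, at an adjusted p of 0.0368. The agonist Il1b had 8.35, 18.3 and 43.3 CPM in nivolumab libraries, 9.41, 21.4 and 0.547 CPM in cancer libraries, and 5.26, 7.18 and 3.40 CPM in sham libraries. The decoy Il1r2 had 6.78, 2.05 and 10.2 CPM in nivolumab libraries, 5.78, 14.1 and 0.597 CPM in cancer libraries, and 1.17, 0.873 and 0.501 CPM in sham libraries. Among the 6 libraries from mice with cancer, both genes were lowest in cancer 3. The sum of 7 neutrophil markers was 26.3 to 183 CPM in nivolumab, 3.83 to 88.4 CPM in cancer and 4.33 to 5.95 CPM in sham, and 3.83 CPM was that of cancer 3. Its part in the IL-1 values was not tested.

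Il33, an alarmin of barrier and stromal cells, had 12.8, 12.6 and 28.2 CPM in nivolumab libraries, 5.74, 16.4 and 1.74 CPM in cancer libraries, and 4.18, 5.04 and 1.97 CPM in sham libraries. Every nivolumab library was above every sham library, and the cancer libraries spread over both. Its receptor gene Il1rl1 averaged 22.7 ± 7.98 CPM in nivolumab, 7.79 ± 6.79 CPM in cancer and 9.06 ± 4.34 CPM in sham. In nivolumab against cancer, Il1rl1 had a log2 fold change of 1.54 (adjusted p = 0.500, edgeR).

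Il11 and Il6, ligands of gp130 receptors, were rare in sham colon and had their highest values in nivolumab colon, although neither passed. Il11 had 5.90, 7.52 and 6.33 CPM in nivolumab libraries, 1.68, 0.957 and 0.249 CPM in cancer libraries, and 0.348, 0.238 and 0.667 CPM in sham libraries. All nivolumab libraries were above all others, by over 3 CPM. Il11 had a log2 fold change of 2.76 against cancer (SE 0.67, adjusted p = 0.356, edgeR) and 3.96 against sham (SE 0.71, adjusted p = 0.322). Il6 had 3.61, 2.69 and 2.08 CPM in nivolumab libraries, 0.993, 1.78 and 0.199 CPM in cancer libraries, and 0.0633, 0 and 0.200 CPM in sham libraries. The ratio of nivolumab to sham was 29.8 by summed counts (95% counting interval 14.9 to 69.8, from 232 and 8 counts), with an adjusted p of 0.372. For both genes the 2 tests disagreed, as DESeq2 gave adjusted p-values of 3.28e-06 for Il11 and 0.000467 for Il6 in nivolumab against sham. The receptor gene Il6st averaged 157 ± 45.1 CPM in nivolumab, 229 ± 102 CPM in cancer and 132 ± 55.9 CPM in sham, with no call.

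Type 2 cytokine genes and their receptors took different values. Il13, a cytokine of type 2 lymphocytes, had 0 counts in all nivolumab and cancer libraries, against 14, 21 and 5 counts in the sham libraries. It was below the expression filter and untested, and by summed counts it was at least 13.0-fold lower in nivolumab and at least 10.2-fold lower in cancer, with 3 counts over the group as the floor. Il13ra1, a chain of the IL-4 and IL-13 receptors, had 127, 171 and 138 CPM in nivolumab libraries, 255, 226 and 185 CPM in cancer libraries, and 116, 131 and 139 CPM in sham libraries. The cancer libraries were above all others. The log2 fold change was 0.79 in cancer against sham (SE 0.17, adjusted p = 0.201, edgeR) and -0.61 in nivolumab against cancer (adjusted p = 0.379). Il17rb, the receptor of IL-25, had 3.85, 2.08 and 3.08 CPM in nivolumab libraries, 7.86, 2.92 and 7.56 CPM in cancer libraries, and 7.85, 7.82 and 9.11 CPM in sham libraries. Its log2 fold change was -1.46 in nivolumab against sham (adjusted p = 0.602). The sum of 6 tuft cell markers was 21.1 to 52.8 CPM in nivolumab, 72.5 to 110.3 CPM in cancer and 88.5 to 103 CPM in sham, and its part in the Il17rb values was not tested.

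Among the IL-10 family, Il10rb had 131, 104 and 106 CPM in nivolumab libraries, 106, 110.3 and 102 CPM in cancer libraries, and 77.1, 65.7 and 86.0 CPM in sham libraries. The sham libraries were the lowest 3. The log2 fold change was 0.57 in nivolumab against sham (adjusted p = 0.472, edgeR) and 0.48 in cancer against sham (adjusted p = 0.315). Il19, an IL-10 family ligand, had 2.05, 0.605 and 1.47 CPM in nivolumab libraries, 0, 3.92 and 0 CPM in cancer libraries, and 0 in all sham libraries. By summed counts it was at least 38.7-fold higher in nivolumab than in sham. Il22ra1, the epithelial receptor of IL-22, had 17.7, 27.04 and 29.9 CPM in nivolumab libraries, 40.8, 17.8 and 33.2 CPM in cancer libraries, and 36.7, 21.6 and 36.8 CPM in sham libraries, which overlapped throughout.

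**Figure D2:**
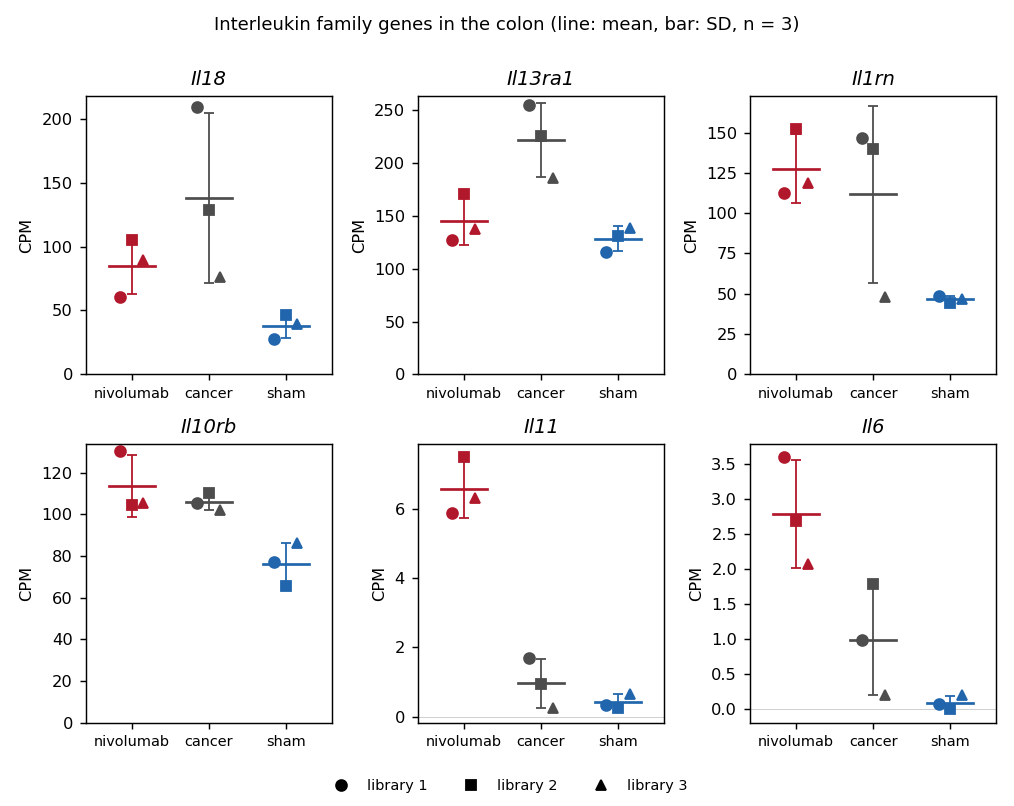
CPM (linear axis) of 6 interleukin genes in each colon library, with nivolumab, cancer and sham from left to right, the group mean as a line and its SD as a bar (n = 3). Il18 and Il10rb were lowest in the 3 sham libraries, Il11 and Il6 were highest in the 3 nivolumab libraries, and Il1rn of cancer 3 lay at the sham level.

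Over the whole family in the colon, the median log2 fold change of the 17 ligands tested was 0.89 in cancer against sham, 0.07 in nivolumab against cancer and 1.12 in nivolumab against sham, where the medians over all genes were 0.00, 0.03 and 0.03. The 32 receptor genes had medians of 0.28, -0.01 and 0.25. Over all 55 interleukin genes tested, the median in cancer against sham was 0.41. It was 0.15 without cancer 2, and 0.29 to 0.57 when any other library was left out. Markers of B and plasma cells summed to 235 to 368 CPM in nivolumab, 130 to 312 CPM in cancer and 971 to 1248 CPM in sham. Smooth muscle markers ranged from 1162 to 19611 CPM over all 9 libraries, and the part of either in these values was not tested. None of the genes in the JAK and STAT, SOCS, adaptor, IL-17 or partner lists passed in the colon.

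**Figure D3:**
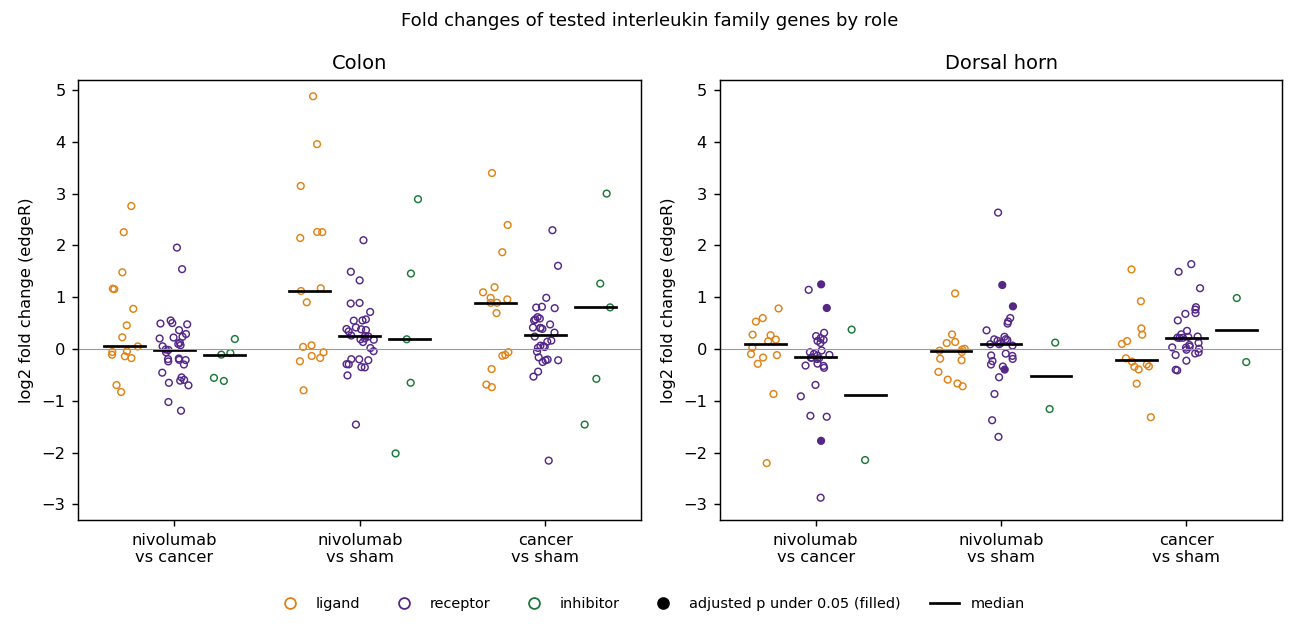
Log2 fold changes of each interleukin gene tested, by role, for 3 comparisons in the colon and the dorsal horn, with the median of each role as a line and genes at an adjusted p under 0.05 filled. Il19 in the colon, at 0 in sham, and the enzyme gene Il4i1 are not drawn. The 6 filled points were receptor genes of the dorsal horn, 3 in nivolumab against cancer and 3 in nivolumab against sham.

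The sham mice of the 2 tissues were compared in a joint fit, to show where each part of the system was transcribed. Of 58 interleukin genes tested, 31 were higher in the colon and 6 were higher in the dorsal horn, against 38.2% and 37.0% of all 14164 genes, 75.2% in all (edgeR). Of 33 receptor genes, 23 were higher in the colon and 3 were higher in the dorsal horn. The tissues were counted in separate tables, of which the genes in both were used.

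The genes higher in the colon included receptors of IL-22 and IL-17, the IL-1 antagonist and a lymphocyte receptor chain. Il22ra1 averaged 32.3 CPM in the colon and 0.0247 CPM in the dorsal horn, where the sham libraries held 2 counts in all. Il17rc averaged 170.0 CPM in the colon and 4.87 CPM in the dorsal horn, with a log2 fold change of 5.12 (adjusted p = 1.56e-09, edgeR). Il17re, the IL-17C receptor, averaged 19.9 CPM in the colon and 0.309 CPM in the dorsal horn (log2 fold change 5.99, adjusted p = 2.31e-08). Il1rn averaged 47.2 CPM in the colon and 0.127 CPM in the dorsal horn, and Il2rb, a chain of the IL-2 and IL-15 receptors on lymphocytes, averaged 11.5 CPM in the colon and 0.321 CPM in the dorsal horn. Il22ra2, a soluble decoy of IL-22, and Il10 had 0 counts in the sham dorsal horn, and were at least 86.5-fold and at least 26.1-fold higher in the colon.

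The 6 genes higher in the dorsal horn were Il1rapl1, Il33, Il4, Il1rap, Il12rb1 and Il34. Il1rapl1, a synaptic protein related to the IL-1 receptor, averaged 0.157 CPM in the colon and 5.69 CPM in the dorsal horn (log2 fold change -5.22, adjusted p = 0.000835, edgeR). Il33 averaged 3.78 CPM in the colon and 82.2 CPM in the dorsal horn (log2 fold change -4.44, adjusted p = 5.98e-05). Il1rap averaged 10.1 CPM in the colon and 80.7 CPM in the dorsal horn (log2 fold change -3.00, adjusted p = 2.02e-07). Il34 averaged 7.10 CPM in the colon and 16.0 CPM in the dorsal horn (log2 fold change -1.17, adjusted p = 0.00405). Il6st, at 133 CPM in the colon and 151 CPM in the dorsal horn, did not pass (adjusted p = 0.605).

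**Figure D4:**
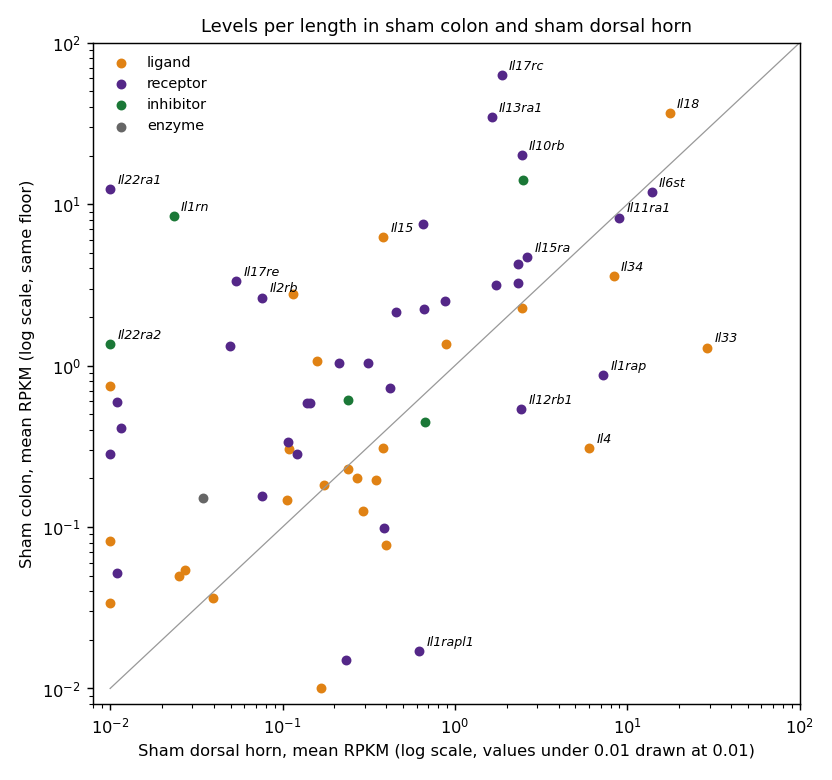
Mean RPKM of 65 interleukin genes in sham colon and sham dorsal horn, both on log axes with values under 0.01 drawn at 0.01. Il33, Il4 and Il1rap lay on the dorsal horn side of the diagonal, and Il22ra1, Il17rc and Il1rn on the colon side.

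The responses of the 2 tissues were tested against each other by interaction terms, and 0 of 58 interleukin genes passed in either, against 0.155% of all genes for cancer against sham and 0.127% for nivolumab against cancer (edgeR). At an unadjusted p under 0.05 there were 7 and 9 of 58, against 10.9% and 16.4% of all genes, and DESeq2 called 2 and 3, against 2.41% and 5.28% of all genes. Il18 was closest for cancer against sham, with a colon minus dorsal horn difference of 2.15 on the log2 scale (SE 0.41, adjusted p = 0.0559). For nivolumab against cancer, the differences were -1.22 for Il10rb (SE 0.28, adjusted p = 0.0748) and -1.42 for Il6st (SE 0.44, adjusted p = 0.137). These did not pass with edgeR, whereas DESeq2 called Il10rb (-1.19, adjusted p = 0.00476), Il6st (-1.40, adjusted p = 0.0398) and Il11 (2.83, adjusted p = 0.0321) for nivolumab against cancer, and Il18 and Il19 for cancer against sham. With edgeR, Il10rb also passed without the colon library of nivolumab 1 (-1.34, adjusted p = 0.0444), and Il18 without that of nivolumab 1 (adjusted p = 0.0491) or of cancer 3 (2.44, adjusted p = 0.00799).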

How the data were processed

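Bulk RNA-seq of mouse colon and spinal dorsal horn gave 18 libraries, 3 per group and tissue. The authors deposited raw whole-number counts per gene, 1 table per tissue, per the file headers. The submitters' processing notes name FastQC 0.11.5, Trimmomatic, HISAT2, StringTie and GRCm38. The sources used here do not name the counting tool, strand setting or filters, so the 20 interleukin genes with exons overlapping another gene may share reads with it. From the counts, edgeR 4.0.16 (R 4.3.3) quasi-likelihood tests were run with TMM scaling, its default expression filter, robust dispersion and all 9 libraries of a tissue, two-sided, with Benjamini-Hochberg adjustment over all 13445 colon or 13609 dorsal horn genes and a threshold of 0.05. A joint fit of 18 libraries used 14164 genes present in both tables. The filter kept 55 of 69 colon and 44 of 66 dorsal horn interleukin genes. CPM used TMM library sizes, and RPKM the exon length of GENCODE M21 (GRCm38). Counting intervals are 95% exact, and intervals and the floor of 3 counts cover counting error only. Among interleukin values, single counts were rarer than pairs (1 against 11 in colon, 2 against 23 in dorsal horn), so low counts may not be single reads. No libraries were duplicates. Same-numbered dorsal horn libraries deviated together in nivolumab and cancer, with correlations of 0.19, 0.28 and 0.19, all above 0.1, so blocked values stand beside that comparison. Differently numbered libraries of these groups correlated at -0.32 to 0.11, and those over all dorsal horn groups at -0.50 to 0.47. The correlations therefore do not show that the libraries were paired. No source gives a shared animal or batch. The genes, lists, tests and alternatives were chosen with earlier results of these data known. Named genes were those called plus, in each comparison, members ranked up to 5 by p, and up to 8 of the largest tissue differences per direction. The others were named after their values were seen. The tests were checked on simulated data. Alternatives were DESeq2 1.42.0 and its size factors, upper-quartile scaling, no filter, a replicate block, 2 groups only, a ganglion marker covariate and removal of libraries. Some results for genes of the JAK and STAT list are not reported here.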

Additional observations from a re-analysis of the deposited data

How the results depend on the processing

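Il6st in both nivolumab comparisons of the dorsal horn, and Il10rb against cancer, passed under every alternative tried there. Il7r, Il11ra1 and Il10rb against sham did not, as given beside them. Over the genes named by call, p rank or tissue difference and all settings, 0 results reversed, 17 lost a call, 38 gained 1 and 1022 did neither. Il31ra was not among these genes. Its sign in nivolumab against cancer in the dorsal horn differed between the replicate block (log2 fold change 3.22) and the ganglion covariate (-2.77). Of the counts of calls, 143 stayed within 1.5 times of the main count and 22 did not. With DESeq2 the colon had 2 calls in nivolumab against cancer (Il11, Il13ra1), 4 in nivolumab against sham (Il11, Il19, Il1rn, Il6) and 6 in cancer against sham (Il13ra1, Il18, Il19, Il1r2, Il1rn, Il6), where edgeR had 0, and the cause was not tested. In the dorsal horn, nivolumab against cancer had 7 calls with DESeq2, 7 with a replicate block and 14 with the ganglion covariate (4 higher, 10 lower), where the main test had 3. Nivolumab against sham had 5 with DESeq2, 5 with only those groups in the fit, 5 with the replicate block and 7 with the covariate, where the main test had 3. Without cancer 3 and sham 3 together, each of those comparisons had 4. Cancer against sham had 1 with the covariate (Il1rap) and 0 in the main test. For the tissue interactions DESeq2 called 2 for cancer against sham and 3 for nivolumab against cancer. Leaving out 1 library at a time gave 0 to 1 calls in the colon for cancer against sham (Il1rn without cancer 3), and 0 in both nivolumab comparisons. In the dorsal horn it gave 2 to 6 for nivolumab against cancer (6 without cancer 1), 1 to 5 for nivolumab against sham (1 without nivolumab 1 or sham 1, 5 without cancer 1) and 0 to 1 for cancer against sham (Il7r without cancer 1). It gave 0 to 2 for the interaction of cancer against sham, 0 to 1 for that of nivolumab against cancer, and 34 to 40 for the sham tissue difference. Outside nivolumab against cancer in the dorsal horn, same-numbered libraries did not deviate together throughout. Their deviations correlated at -0.44 to 0.46 in the colon and at -0.14 to 0.01 between tissues. Between sham and the other groups of the dorsal horn they correlated at -0.08 to 0.53. Leaving out 1 library leaves 2 in its group, and depth limits genes near 3 counts.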

Other observations

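Il4, the type 2 cytokine gene known from T helper and mast cells, was counted in every dorsal horn library. It had 7.14, 6.38 and 8.18 CPM in nivolumab libraries, 6.53, 6.39 and 5.08 CPM in cancer libraries, and 7.93, 7.29 and 6.94 CPM in sham libraries, with 115 to 221 counts per library. In the colon it had at most 0.783 CPM. In the dorsal horn the T cell markers Cd3e and Cd4 stayed at 0.173 to 0.990 CPM and 0.171 to 0.486 CPM, and the sum of 11 T and NK cell markers at 1.14 to 4.33 CPM. Of 7 mast cell and eosinophil markers, 4 were higher in every nivolumab library than in all others, and the list summed to 44.97 to 49.9 CPM in nivolumab, 23.9 to 31.4 CPM in cancer and 27.4 to 35.6 CPM in sham. Most of that sum was Kit, also a gene of other cells, at 43.3 to 48.3 CPM in nivolumab, 22.9 to 30.3 CPM in cancer and 26.3 to 34.6 CPM in sham. Cpa3, a mast cell protease gene, had 0.296 to 0.686 CPM in nivolumab, 0.0381 to 0.177 CPM in cancer and 0 to 0.0822 CPM in sham, and Mcpt4 and Tpsb2 were at 0 in all cancer and sham libraries. The exons of Il4 share no bases with another gene of the annotation. What these reads cover cannot be seen in counts per gene, and their origin was not tested.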
